A study of Arabidopsis thaliana with 2 samples.

Results

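The genes described here are 9 Arabidopsis thaliana genes widely induced by low oxygen, chosen because AT3G10020, a member of that group, read about 3-fold higher in pericycle cells without iron. They are AT3G10020, AT3G10040 (HRA1), AT5G10040, AT4G24110, AT3G27220, AT1G19530, AT4G27450, AT2G16060 (HB1) and AT5G66985. A gene was measured where the platform's gene table gave it a probe set of its own, which held for 8 of the 9 and for 13355 genes in all. HB1 was not analysed here. The question was whether the higher reading of AT3G10020 extended to other genes of the low-oxygen response. Because AT3G10020 was picked for its value on these arrays, its values are a description.

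Pericycle cells, the outermost layer of the root's vascular cylinder, were sorted as protoplasts from Columbia seedling roots, using the reporter line J2661, in which they carry a green fluorescent protein. The group without iron was moved for 24 h to medium with no iron salt and 0.3 mM of the iron chelator ferrozine. The group with iron was moved for 24 h to medium that contained iron. Seedlings of both groups had first grown for 6 days on standard medium, were 7 days old, and differed in no other stated treatment. The data hold 1 column of values per group, labelled replicate 1 and taken here as 1 array; the labels' protocols mention 3 biological replicates per line, and the others were not analysed here. No difference below therefore has a replicate check, no p-value was computed, and each "higher" or "lower" below compares these 2 arrays alone.

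Plants sense low oxygen through transcription factors of the ERF-VII family. In air, plant cysteine oxidases, enzymes that hold iron in their active site, mark these factors for destruction, and in low oxygen the factors persist and switch on a core set of genes. That set includes enzymes of fermentation, a haemoglobin, regulators such as HRA1, and many small proteins of unknown function. In roots it is known from flooding and from tissues where oxygen diffuses slowly.

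Without iron, AT3G10020 was 3.11-fold higher and AT5G66985 1.92-fold higher as deposited, and AT4G27450 was 1.66-fold higher. Against probe sets of similar brightness, AT3G10020 was still 2.03-fold higher, AT5G66985 1.44-fold and AT4G27450 1.08-fold. AT1G19530, AT3G27220 and AT4G24110 differed by less than 1.1-fold as deposited. AT5G10040 and HRA1 read lower as deposited, at or close to the level of control probe sets for bacterial transcripts. The sign for AT5G10040 changed under some other scalings and stayed under others. Of 19 other low-oxygen genes, none was past 1.5-fold in either direction once brightness was adjusted for, against 0.567% of all plant probe sets that were so far higher and 0.774% that were so far lower.

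Intensities are in arbitrary linear units. The 22746 plant probe sets had a median of 0.866 without iron and 0.852 with iron. Bright probe sets mostly read higher and dim ones mostly lower without iron, so each log2 difference, without iron minus with iron, is also given brightness-adjusted, that is, after subtraction of a lowess curve of difference on mean log2 value. The local SD beside an adjusted value is a robust SD over the 500 probe sets nearest in brightness, and it measures how genes scatter, not how replicates do. The 27 Bacillus control probe sets, which match transcripts no plant makes, ranged from 0.389 to 0.635 without iron and from 0.531 to 0.727 with iron. Of the plant probe sets, 64.1% without iron and 63.1% with iron read above the highest of these controls. Of the 6 listed pericycle and stele markers, AT4G30450 was named, and it read 51.5 without iron and 40.6 with iron. Its adjusted log2 difference was -0.20, below the trend of probe sets as bright. EXPA7 and EXPA18, expansins of root hairs, read 0.820 and 0.802 without iron and 1.06 and 0.993 with iron, with adjusted log2 differences of -0.47 and -0.36. Both cortex markers, CO2 and PEP, read within the range of the Bacillus controls on both arrays. The endodermal marker SGN3 read 1.44 without iron and 1.46 with iron, and the phloem marker OPS read 0.866 without iron and 0.768 with iron, with adjusted log2 differences of -0.37 and 0.19. The part of other cell types in the differences below was not tested, and more cells of a type and more RNA per cell cannot be told apart in sorted pools.

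**Figure D1:**
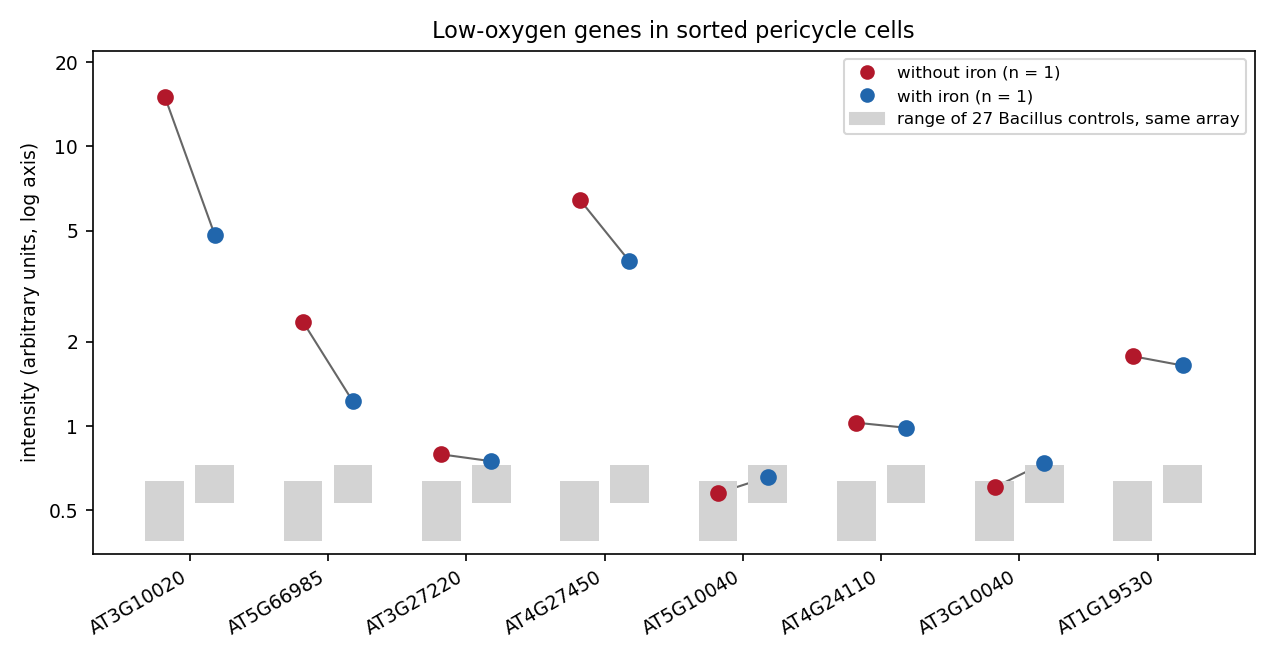
Intensity (arbitrary linear units, log axis) of the 8 measured members without iron (red, left of each pair) and with iron (blue, right), 1 array each, with no error bars because there are no replicates. Grey boxes span the 27 Bacillus controls of the same array; AT3G10020, AT5G66985 and AT4G27450 read clearly higher without iron, while AT5G10040 lies inside the grey boxes on both arrays.

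AT3G10020, a gene of unknown function in the core low-oxygen set, read 15.1 without iron and 4.84 with iron. The log2 difference was 1.64 as deposited and 1.02 adjusted (local SD 0.25). Among all plant probe sets it ranked 9 by the deposited difference and 12 by the adjusted one. Among the probe sets nearest in brightness, 1 had a higher adjusted difference and 498 had a lower one. Its q value in the authors' deposited table was 8.03e-06. The reading without iron thus stood apart from that of transcripts with similar signal, and this is the property for which the gene was chosen.

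AT5G66985, which encodes a small protein of unknown function, read 2.35 without iron and 1.22 with iron. The log2 difference was 0.94 as deposited and 0.52 after the adjustment (local SD 0.21). Of the probe sets nearest in brightness, 7 had a higher adjusted difference and 492 a lower one. Its q value in the authors' deposited table was 0.000340. AT5G66985 was the member closest to AT3G10020 in adjusted difference, although it stayed under 1.5-fold on that scale.

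AT4G27450 belongs to the aluminium-induced proteins, a family named for its response to aluminium. It read 6.46 without iron and 3.89 with iron, and the deposited log2 difference was 0.73. With brightness adjusted for, the difference was 0.12 (local SD 0.23), and 191 of the probe sets nearest in brightness lay above it and 308 below it. Its q value in the authors' deposited table, which was not computed for the adjusted value, was 0.00864. The deposited difference of AT4G27450 was close to that of other transcripts as bright.

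Its 4 listed relatives were all named. AT5G43830 had a deposited log2 difference of 0.73 and an adjusted one of 0.12. AILP1 read 3.00 without iron and 1.96 with iron (0.62 and 0.09). AT3G22850 and AT3G15450 had deposited log2 differences of 0.45 and 0.32 and adjusted ones of -0.16 and -0.27. All 4 were thus higher as deposited. So were 10442 of the 11373 plant probe sets with a mean value at or above the median, to which all 4 belong. After the adjustment 2 lay above and 2 below their brightness trend. The 0.12 of AT4G27450 lay at the upper end of their adjusted range, -0.27 to 0.12.

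HRA1 (AT3G10040) is a trihelix transcription factor that binds the ERF-VII factor RAP2.12 and restrains it. It read 0.604 without iron, inside the range of the Bacillus controls, and 0.738 with iron, just above their highest value. The log2 difference was -0.29 as deposited and -0.10 after the adjustment (local SD 0.09), with a q value of 0.000148 in the authors' deposited table. All 27 Bacillus controls were also lower without iron, with log2 differences between -0.54 and -0.16 and a median of -0.42. The difference of HRA1 lay within that range.

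AT5G10040, which encodes a small protein of unknown function, read 0.576 without iron and 0.657 with iron, inside the range of the Bacillus controls on both arrays. The log2 difference was -0.19 as deposited and 0.07 after the adjustment (local SD 0.08). It was also above 0 after quantile normalization, at 0.07, and after an offset and a scale were removed, at 0.04. With a pseudocount of 1 it stayed below 0, at -0.07, as it did with the median difference of all plant probe sets set to 0, at -0.19. Its q value in the authors' deposited table was 0.00182. No direction can be read from a signal at this level.

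AT3G27220, a gene for a kelch repeat protein, read 0.792 without iron and 0.749 with iron, above the highest Bacillus control of each array. Its log2 difference was 0.08 as deposited and 0.15 after the adjustment (local SD 0.13). AT4G24110, a gene of unknown function, read 1.03 without iron and 0.986 with iron. Its log2 difference was 0.06 as deposited and -0.08 after the adjustment (local SD 0.15), and it was also below 0 after quantile normalization, at -0.08, and after an offset and a scale were removed, at -0.07. The q values of AT3G27220 and AT4G24110 in the authors' deposited table were 0.247 and 0.223. For both genes the arrays read nearly alike.

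AT1G19530, another little-known gene of the core set, read 1.78 without iron and 1.65 with iron. The log2 difference was 0.11 as deposited but -0.31 after the adjustment (local SD 0.21), -0.32 after quantile normalization and -0.26 after an offset and a scale were removed. Of the probe sets nearest in brightness, 460 had a higher adjusted difference and 39 a lower one. The q value of the deposited difference in the authors' deposited table was 0.235. AT1G19530 and AT5G66985 were nearly as bright as each other, at the 75.6 and 75.3 percentile of mean value, and lay on opposite sides of the trend.

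**Figure D2:**
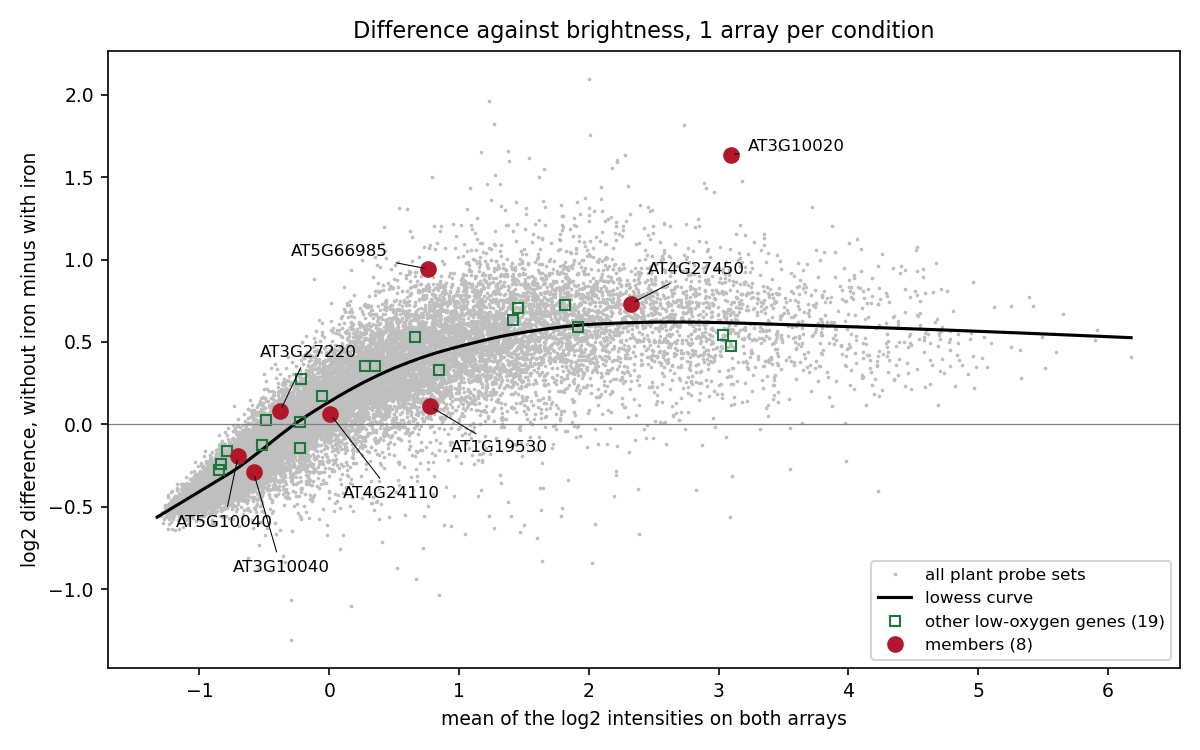
Log2 difference, without iron minus with iron, against the mean log2 intensity of both arrays, for all plant probe sets (grey), the 8 members (red) and 19 other low-oxygen genes (green squares), with the lowess curve in black. AT3G10020 stands 1.02 above the curve and AT5G66985 0.52 above it, AT1G19530 lies below it with an adjusted difference of -0.31, and the other members and the green squares lie closer to it.

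Counted as a group, 3 of the 8 measured members were at least 1.5-fold higher without iron as deposited. Over all plant probe sets 12.6% were, and 25.1% of those whose mean value was at or above the median, to which AT3G10020, AT5G66985 and AT4G27450 belong. None of the 8 was 1.5-fold lower, against 0.233% of all plant probe sets. With brightness adjusted for, only AT3G10020 of the 8 was 1.5-fold higher, against 0.567% of all plant probe sets, and none was 1.5-fold lower, against 0.774%. At 2-fold as deposited the count was also 1, AT3G10020, against 1.08%. AT3G10020 entered through this contrast, so nothing is read from these shares.

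The members' median log2 difference was 0.10 as deposited and 0.09 after the adjustment, beside -0.00226 and 0.00234 over all plant probe sets. Adjusted for brightness, 5 members lay above 0 and 3 below, in a range from -0.31 to 1.02. The 5 include AT3G10020, which was chosen on this contrast. Of all plant probe sets, 11563 lay above 0 on that scale and 11183 below. A q under 0.05 was listed in the authors' deposited table for 5 of the 8, against 61.3% of all plant probe sets. Of these 5, AT3G10020, AT5G66985 and AT4G27450 were higher without iron. HRA1 and AT5G10040 read lower as deposited, at or close to the level of the Bacillus controls, and AT5G10040 was above 0 after the adjustment. Over all plant probe sets, q under 0.05 in the authors' deposited table went with a higher value at 22.3% and with a lower value at 39%.

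The wider low-oxygen response was described with 62 other genes, of which the platform's gene table gave 19 a probe set of their own. As deposited, 4 of the 19 were 1.5-fold higher without iron, against the 12.6% of all plant probe sets. The share was 25.1% among those whose mean value was at or above the median, to which all 4 belong. None of the 19 was 1.5-fold lower, against 0.233%. Adjusted for brightness none was past 1.5-fold either way, where the shares over all plant probe sets were 0.567% for higher and 0.774% for lower, so a count of 0 among 19 is close to the background. The median log2 difference of the 19 was 0.33 as deposited. Over all plant probe sets it was -0.00226, and 0.383 over those with a mean value at or above the median. After the adjustment the median of the 19 was 0.07, and 13 lay above 0 and 6 below, in a range from -0.16 to 0.25. Over all plant probe sets the adjusted median was 0.00234, with 11563 above 0 and 11183 below. For 10 of the 19 a q under 0.05 was listed in the authors' deposited table, a share no higher than the 61.3% of all plant probe sets. Counted over the 19, 7 had such a q with a higher value without iron and 3 had it with a lower value. The shares over all plant probe sets were 22.3% and 39%. The 3, AT4G10270, AT2G17850 and AT5G45960, read inside the range of the Bacillus controls on both arrays and were at 0.06, 0.15 and 0.09 after the adjustment. No gene of the 17 listed for oxygen sensing, among them the ERF-VII factors and the plant cysteine oxidases, and neither of the 2 other haemoglobins was named, so these were not analysed here.

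Of 14 genes of fermentation and sugar supply, 3 were named. The platform's gene table gave the others no probe set of their own, and they were not analysed here. That table left 8785 probe sets without a gene, so a gene not named here may still be on the array. PDC2, a pyruvate decarboxylase that opens the ethanol branch of fermentation, read 4.53 without iron and 2.74 with iron, log2 differences of 0.73 as deposited and 0.13 after the adjustment (local SD 0.23). LDH1, the lactate dehydrogenase, read 3.32 without iron and 2.14 with iron (0.63 and 0.09). PPDK, pyruvate orthophosphate dikinase, read 0.669 without iron and 0.730 with iron (-0.13 and 0.03). PDC2 and LDH1 were past 1.5-fold as deposited, and all 3 lay within 1 local SD of the brightness trend.

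Among 29 other core low-oxygen genes, 16 were named. AT4G33560, of the wound-responsive protein family, had the highest adjusted difference of the 16, at 0.25 (local SD 0.13), and read 0.944 without iron and 0.780 with iron. A second gene of that family, AT4G10270, read 0.504 without iron and 0.611 with iron, inside the range of the Bacillus controls. AT1G26270, a phosphatidylinositol kinase family gene, read 3.50 without iron and 2.14 with iron, giving log2 differences of 0.71 as deposited and 0.16 after the adjustment. AT1G74940, which encodes an FLZ-type zinc finger protein, was 0.59 higher as deposited and -0.01 after the adjustment. Of the 16, AT1G26270 and AT1G74940 were the genes past 1.5-fold as deposited.

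CML38, a calmodulin-like calcium sensor of low-oxygen stress granules, read 1.90 without iron and 1.32 with iron (0.53 as deposited, 0.14 after the adjustment). HRU1, a universal stress protein that acts in reactive oxygen signalling in low oxygen, read 2.01 without iron and 1.60 with iron (0.33 and -0.11). Both differed from the trend by less than 1 local SD, which was 0.20 and 0.21. The RING finger gene AT5G42200 and AT1G10140 were bright, at 10.1 and 9.90 without iron and 7.23 and 6.79 with iron, with adjusted log2 differences of -0.14 and -0.07.

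The other 8 of the 16 lay between -0.16 and 0.16 after the adjustment. AT1G33055, AT1G72940 and AT3G23170 had deposited log2 differences of 0.35, 0.35 and 0.17 and adjusted ones of 0.07, 0.09 and 0.06. AT2G17850, a rhodanese-like gene, and AT5G45960, a GDSL lipase gene, read 0.547 and 0.517 without iron and 0.612 and 0.610 with iron, inside the range of the Bacillus controls on both arrays, and were at 0.15 and 0.09 after the adjustment. AT2G15880, AT5G44730 and FHL, a gene of phytochrome A signalling, were at 0.16, -0.01 and -0.16 after the adjustment. None of these 8 reached the adjusted difference of AT5G66985. That gene ranked 188 of 22746 plant probe sets on that scale, so nearly all probe sets fall short of it too. Of 3 genes for hypoxia-induced gene domain proteins, a family named after animal proteins induced by low oxygen, AT5G27760 read 3.74 without iron and 2.27 with iron (0.72 as deposited, 0.16 after the adjustment), and AT3G48030 read 0.765 without iron and 0.853 with iron (-0.16 and -0.13).

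**Figure D3:**
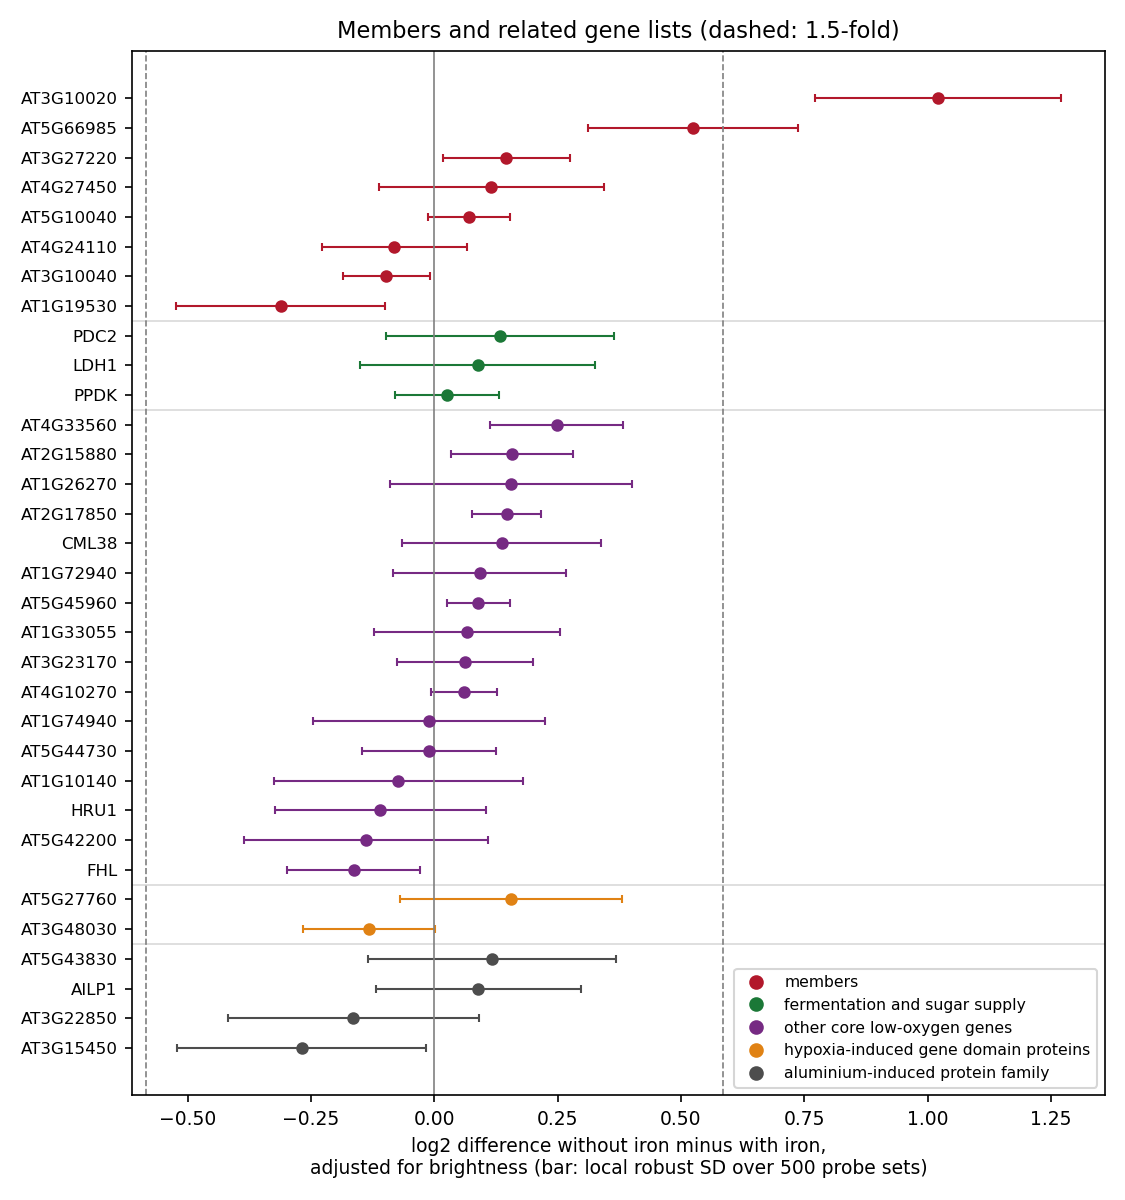
Brightness-adjusted log2 difference for the 8 members, 19 other low-oxygen genes in their 2 lists with named genes, and 2 families of related proteins, with bars of 1 local robust SD over 500 probe sets and dashed lines at 1.5-fold. AT3G10020 at 1.02 is the only point past a dashed line, AT5G66985 at 0.52 comes next, and the others lie between -0.31 and 0.25.

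The genes most like AT3G10020 in their pair of values were found by the Euclidean distance over the 2 log2 intensities. The nearest was AT1G52070, of the jacalin-type lectins, at a distance of 0.32, which read 13.7 without iron and 5.89 with iron. AT3G56360, of unknown function, followed at 0.34 with 13.1 without iron and 5.87 with iron. AT3G62260, a protein phosphatase of type 2C, followed at 0.42 with 11.7 without iron and 5.54 with iron. Their adjusted log2 differences were 0.60, 0.54 and 0.46, below the 1.02 of AT3G10020. None is a member or is on the low-oxygen lists. Only 8 members and 19 other low-oxygen genes are among the 13355 genes measured, so nothing is read from that. Over 2 arrays such likeness says only that the values lie close together.

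AT3G10020 and HRA1 lie on the same chromosome with AT3G10030 as the only protein-coding gene between them in the reference annotation, and neighbouring genes were looked at after the values of both had been seen. AT3G10030 read 1.53 without iron and 1.00 with iron, log2 differences of 0.61 as deposited and 0.34 after the adjustment (local SD 0.18). Its q value in the authors' deposited table was 0.0377. Within 5 genes on either side, AT3G09970 and AT3G10060 were also named, and their adjusted log2 differences were 0.06 and 0.04. AT3G10020 was thus high beside named neighbours that were close to the trend or, for AT3G10030, moderately above it. On the side away from AT3G10030 only AT3G09970, 5 places away, was named, so the gene next to AT3G10020 there was not read.

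**Figure D4:**
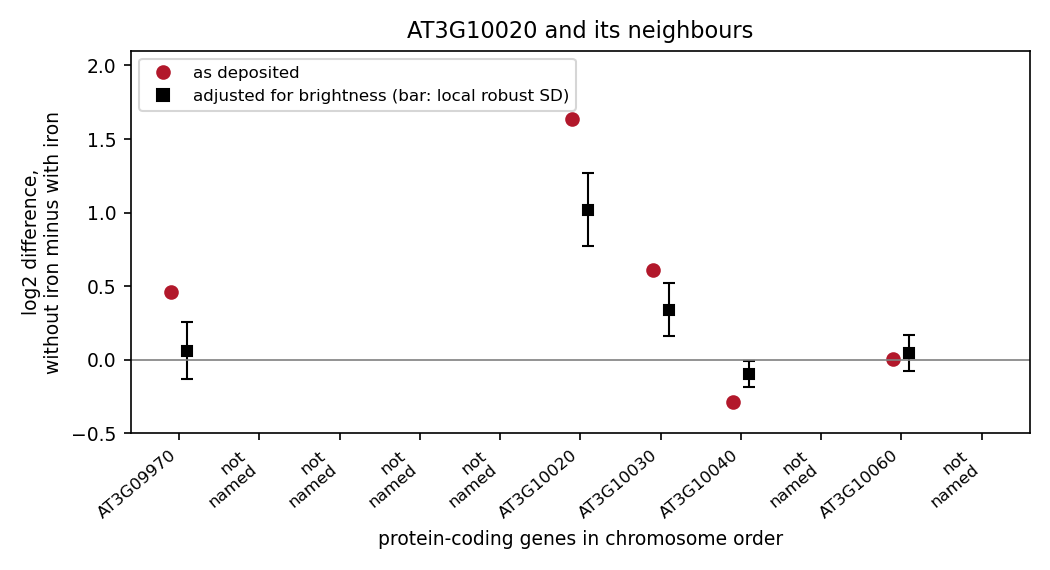
Log2 difference, without iron minus with iron, as deposited (red circles) and after the adjustment (black squares, bars of 1 local robust SD) for AT3G10020 and the named protein-coding genes within 5 places of it in chromosome order, 1 array per condition. AT3G10020 has an adjusted difference of 1.02, AT3G10030 next to it 0.34, and HRA1 (AT3G10040) beyond that -0.10.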

How the data were processed

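The authors deposited probe set intensities on a linear scale, 1 column per condition, from biotin-labelled cRNA amplified in successive rounds per the labels' protocols, and the sources used here do not give the background correction, the summarisation or the scaling. For each probe set a q-value of the authors was deposited as well, and neither its test nor its arrays are stated in those sources. Amplification in rounds can widen differences between arrays. No per-sample column was left out.

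Of 22801 probe sets, 55 were controls. The platform's gene table, which can be dated, gave 13513 probe sets 1 gene, 503 several and 8785 none, and names were updated by gene ID through a RefSeq table of assembly TAIR10.1, whose coordinates served only for gene order. Differences are log2 without a pseudocount or filter. The lowess curve used a fraction of 0.2 (statsmodels 0.14.6, Python 3.11.15). It was run on simulated data built from this same curve and local SD. Such a run checks the code and cannot show that the curve suits these data. Counts use 1.5-fold, since 1 array per condition allows no test, and the number of arrays limits the precision. Members, lists and alternatives were chosen with earlier results of these data known. Named genes are all members, all measured genes of the lists (up to 30) and the 3 nearest to AT3G10020. All members' probe sets end in _at, without the _s or _x of shared probe sets. The alternatives tried were other normalizations, a pseudocount, a filter, other curves, the probe set type, 2-fold and the mean.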

Additional observations from a re-analysis of the deposited data

How the results depend on the processing

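Of the members, 3 were 1.5-fold higher without iron as deposited, and 1 (AT3G10020) after quantile normalization, 1 once an offset and a scale, fitted to the plant probe sets, were removed, and 1 at 2-fold. Quantile normalization and the removal of offset and scale put 0.598% and 0.404% of all plant probe sets past 1.5-fold, against 12.6% as deposited. The members' median log2 difference as deposited, 0.10, was 0.73 over the 5 members whose mean value was at or above the median, a filter that drops the dim members and under which the median of all plant probe sets was 0.38, and 0.39 as a mean. AT3G10020 was 1.03 higher after quantile normalization, 0.91 after the offset and scale were removed and 1.46 with a pseudocount of 1. AT5G66985 was at 0.55, 0.48 and 0.59 and AT4G27450 at 0.09, 0.08 and 0.61 under the same settings. The cause was not tested. Adjusted for brightness, members were also read with a lowess fraction of 0.5, a running median in place of lowess or a pseudocount of 1. Each of the 8 moved by less than its local SD, though AT5G66985 went from 0.52 to 0.32 with the pseudocount. Under every alternative run on that scale, the counts stayed at 1 member and 0 of the 19 other genes. The medians of both groups moved by less than the median local SD of their genes, a wide margin for medians this small. No paired analysis was possible because each condition has 1 array. Signals at the level of the Bacillus controls (AT5G10040 and HRA1) limit what can be read for those genes.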

Other observations

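Genes next to the other members on the chromosome were named in 6 further cases. Across all 7 adjacent genes named, AT3G10030 included, the brightness-adjusted log2 differences had a median of 0.01 and ranged from -0.20 to 0.34. None was past 1.5-fold. Over all plant probe sets 0.567% were so far higher and 0.774% so far lower, so nothing is read from that count. AT5G66980, next to AT5G66985, read 0.446 without iron and 0.579 with iron, inside the range of the Bacillus controls on both arrays, and was at 0.02 after the adjustment. PORB, a chlorophyll synthesis enzyme gene next to AT4G27450, read 0.791 without iron and 0.819 with iron, an adjusted log2 difference of -0.02. AT1G19540, next to AT1G19530, read 0.927 without iron and 0.986 with iron and lay at -0.20 after the adjustment, beside -0.31 for AT1G19530.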
